A study of Homo sapiens with 6 samples.

Results

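The Toll-like receptors of THP-1 cells were examined together with the surface protein CD14, the accessory protein LY96 and the adaptor MYD88. The group was defined by gene symbol as TLR1, TLR2, TLR4, TLR5, TLR6, TLR7, TLR8, CD14, LY96 and MYD88, and all 10 genes were found among the 33981 genes of the count table. THP-1 is a human cell line derived from acute myeloid leukemia of the monocytic type. The cells received a lentivirus carrying either scrambled shRNA (3 samples, the controls) or a short hairpin RNA against the transcription factor NFIC (3 samples), were sorted for the GFP of the vector 4 days after infection, and were sequenced as bulk RNA. The labels name scrambled shRNA for the controls, as do the study's results text and figure legend. Its sequencing methods instead describe a GFP-only vector. Both groups share the cell line, the infection and the sort, and the labels name no receptor ligand. The labels give 1 NFIC shRNA condition and do not say whether the samples came from separate cultures, so p-values measure only the spread between these samples, which may be technical.

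Toll-like receptors recognize conserved molecules of microbes at the cell surface or in endosomes, and monocytes are among the cells that carry the widest set of them. Surface receptors read lipopeptides, lipopolysaccharide and flagellin, and endosomal receptors read nucleic acids. On binding, most of them recruit the adaptor MYD88, which assembles IRAK kinases and TRAF6 and thereby activates NF-κB and MAP kinases. CD14 is also a common surface marker of mature monocytes, and it hands lipopolysaccharide to the complex of TLR4 and LY96.

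Of the 10 genes, CD14 and TLR5 rose with NFIC shRNA, TLR2 and TLR4 fell, and TLR1, TLR6, TLR8 and MYD88 did not pass the test. TLR7 and LY96 had too few reads for the low-count filter and are given by their counts. Calls come from the quasi-likelihood test of edgeR, adjusted by Benjamini and Hochberg's method over the 19182 genes tested, with a threshold of 0.05. Over all genes tested, 59.9% were called, 29.6% higher and 30.3% lower with NFIC shRNA, so 2 higher and 2 lower of 8 members tested is a share close to that background. The groups did not overlap in CPM, a gene's counts relative to the scaled total of its library, for 4 of the 8 members tested, against 65.2% of all genes tested. The median log2 fold change was -0.0064 over the members tested and -0.011 over all genes tested. The members therefore differed one by one, and in bulk samples fewer cells of a type and less RNA per cell cannot be told apart.

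**Figure D1:**
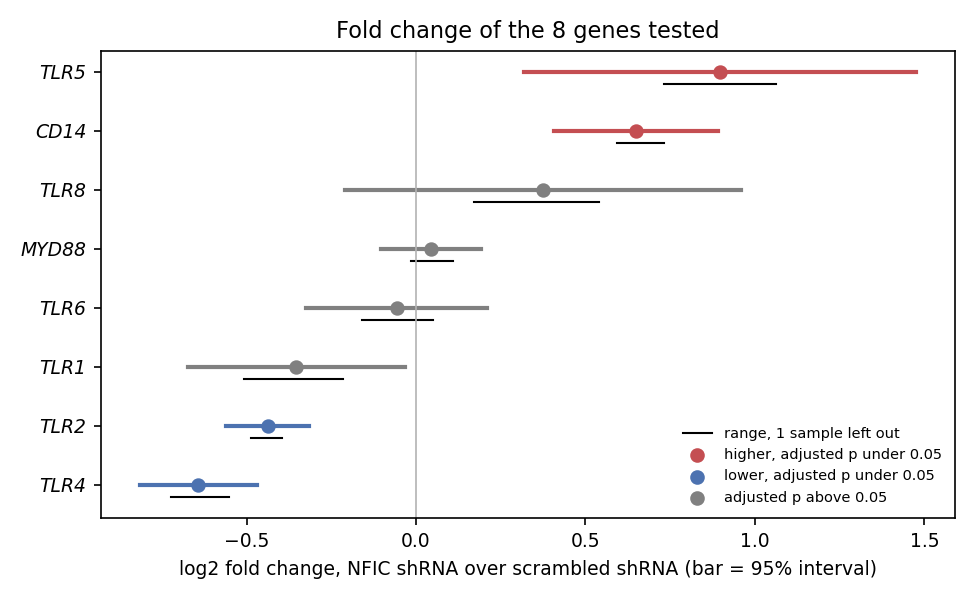
Log2 fold change of each tested member, NFIC shRNA over scrambled shRNA, from edgeR, with 95% confidence intervals as colored bars and the range with 1 sample left out as thin black lines. TLR4 and TLR2 lie below 0 and CD14 and TLR5 above it with their whole interval, while the intervals of TLR6, MYD88 and TLR8 hold 0 and that of TLR1 ends at -0.033.

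The libraries held 20369543 to 24809720 counts, so that 3 counts, taken as the smallest detectable amount, equal 0.122 to 0.145 CPM. NFIC itself had 904 to 1019 counts with scrambled shRNA and 399 to 518 with NFIC shRNA, a log2 fold change of -0.99 (SE 0.072, edgeR adjusted p = 3.73e-09). The monocyte label was checked with 12 markers, and all 12 exceeded 3 counts in some sample, though not all in both groups. The summed level of these markers was 2087 to 2217 CPM with scrambled shRNA and 2200 to 2365 CPM with NFIC shRNA. Of the 11 tested, 4 were higher and 4 lower, against 29.6% higher and 30.3% lower over all genes tested. LYZ, the lysozyme gene, rose from 571 to 939 CPM while CD68, a lysosomal glycoprotein, fell from 261 to 130 CPM. The rise of LYZ is larger than that of the sum, so the other markers together fell. FCN1, a lectin of classical monocytes, exceeded 3 counts only with NFIC shRNA. It was nearly absent, with 3 counts over the scrambled samples and 14 over the NFIC shRNA samples. Markers of other cells were summed in the same way: the range was 220 to 227 against 166 to 196 CPM for granulocyte markers, 23.0 to 25.1 against 16.3 to 17.9 CPM for B cell markers, 5.96 to 6.62 against 1.65 to 1.95 CPM for erythroid and megakaryocytic markers, 1.62 to 1.96 against 0.387 to 0.775 CPM for T cell markers, and at most 0.301 CPM for dendritic cell markers. Their part in the results on the receptors was not tested.

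TLR2 recognizes bacterial lipopeptides as a dimer with either TLR1, for triacylated forms, or TLR6, for diacylated forms. TLR2 (GRCh38 chr4:153684070-153706260, plus strand) had 2242, 2390 and 2353 counts in controls and 1601, 1816 and 1696 with NFIC shRNA. All NFIC shRNA samples lay below all scrambled samples. Its level averaged 103 ± 6.38 CPM (SD, n = 3) in controls and 76.4 ± 2.59 CPM with NFIC shRNA, or 73.9% of the control level, a log2 fold change of -0.44 (SE 0.058, edgeR adjusted p = 4.86e-06). Its partners were much lower. TLR1 (chr4:38790677-38856817, minus strand) had 128, 169 and 140 counts in controls and 83, 141 and 115 with NFIC shRNA, and the groups overlapped in CPM because NFIC shRNA replicate 2 reached the level of the lowest control. The level of TLR1 was 6.43 ± 0.482 CPM and then 5.02 ± 1.02 CPM, and the log2 fold change of -0.35 (SE 0.15, 95% interval -0.67 to -0.033) missed the threshold with an edgeR adjusted p of 0.0539. Without NFIC shRNA replicate 2 it was -0.51 (edgeR adjusted p = 0.0110) and without scrambled replicate 1 it was -0.42 (edgeR adjusted p = 0.0487), both past the threshold. Upper-quartile scaling, a minimum of 10 counts in every sample and both fits with a block also took TLR1 past the threshold. TLR6 (chr4:38822897-38856817, minus strand) had 217, 205 and 223 counts and then 160, 216 and 241 counts, and its groups overlapped almost wholly. It measured 9.58 ± 1.11 and 9.16 ± 1.35 CPM, a log2 fold change of -0.057 (95% interval -0.32 to 0.21, edgeR adjusted p = 0.716), and the sign turned when scrambled replicate 3 or NFIC shRNA replicate 1 was left out.

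The annotated span of TLR1 encloses that of TLR6 on the same strand, and their exons overlap over 57 bases. TLR1 and TLR6 are also related copies, identical at 75.8% of their aligned coding bases. A fragment that lies wholly within a shared stretch could come from either. How many fragments did so was not tested. Their longest identical stretch is 218 bases, and 5.27% of the 100-base windows of the TLR1 coding sequence occur in TLR6. It is shown because fragments within it bear on the counts of both genes, as read from GRCh38 on the minus strand (chr4:38797236-38797453 in TLR1 and chr4:38827863-38828080 in TLR6), with no base in capitals since every base is shared.
TLR1 and TLR6 shared stretch: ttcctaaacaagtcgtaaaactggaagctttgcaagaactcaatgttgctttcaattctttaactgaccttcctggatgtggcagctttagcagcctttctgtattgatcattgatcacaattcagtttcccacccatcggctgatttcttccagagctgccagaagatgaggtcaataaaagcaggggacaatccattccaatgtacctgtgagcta
The counts of the pair were also summed within each sample. The sums were 345, 374 and 363 in controls and 243, 357 and 356 with NFIC shRNA, or 16.0 ± 0.880 and 14.2 ± 2.09 CPM, and the groups overlapped. The longest stretch shared with TLR2 was 12 bases for TLR1 and 14 bases for TLR6, and with TLR10 it was 37 bases for each.

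TLR4 is the signaling receptor for lipopolysaccharide, the outer membrane lipid of Gram-negative bacteria. TLR4 (chr9:117704175-117724735, plus strand) had 1426, 1495 and 1639 counts in controls and 943, 920 and 1032 with NFIC shRNA. Every NFIC shRNA sample was below every control. The level went from 67.7 ± 8.05 to 43.3 ± 3.26 CPM, 64.0% of the control, with a log2 fold change of -0.64 (SE 0.081, edgeR adjusted p = 4.35e-06). A gene without a name, ENSG00000285082, overlaps TLR4 on the same strand over 678 of its 13277 exon bases, and its own counts were 126, 133 and 133 in controls and 84, 96 and 109 with NFIC shRNA. CD14 (chr5:140631728-140633700, minus strand) moved the other way. It had 144, 167 and 172 counts in controls and 213, 274 and 264 with NFIC shRNA, with no overlap between the groups. Its level rose from 7.15 ± 0.759 to 11.2 ± 0.768 CPM, 156% of the control, with a log2 fold change of 0.65 (SE 0.11, edgeR adjusted p = 1.06e-04).

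The sequence around the start sites of TLR4 and CD14 was searched because these partners moved in opposite directions. The window was the 250 bases before the start of the canonical transcript in GENCODE, as RefSeq gives them for GRCh38.p14, chr9:117704153-117704402 (plus strand) for TLR4 and chr5:140633176-140633425 (minus strand) for CD14. Both genes also have annotated transcripts that start farther upstream, at 117704175 for TLR4 and at 140633700 for CD14, which is why the windows fall within the gene positions given above. Of the 250 bases, 228 lie in exons of such transcripts for TLR4 and 117 for CD14. Capitals mark TTGGC, the short core that NFI proteins contact, and GAGGAA, a core of PU.1 sites, each on either strand (GCCAA and TTCCTC on the opposite one). Shown in the direction of transcription are the part of the TLR4 window before every annotated start, chr9:117704153-117704174, and 30 bases around the match in CD14, chr5:140633254-140633283, which lie in an exon of a longer transcript.
TLR4: actaattgggataaaaGCCAAc
CD14: ggggctggctcgGAGGAAgagaggtgggga
The TLR4 window holds 1 NFI core and 4 PU.1 cores, and the CD14 window holds 1 PU.1 core and no NFI core. No match overlaps another. RefSeq entries were found for 7 of the 9 members looked up, with TLR1 and TLR7 missing, and LY96 was not looked up. The NFI core occurred in 3 of these 7 (TLR4, TLR6 and TLR8) and in 40.8% of all 35116 promoter windows of this length, and the PU.1 core in 4 of 7 (CD14, MYD88, TLR4 and TLR6) and in 23.6% of all windows. The full palindrome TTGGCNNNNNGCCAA occurred in none of the 7 and in 10 of the 35116 windows. The windows of TLR2 and TLR5 held neither core. Exons of transcripts that start farther upstream cover 210 of the 250 bases for TLR2 and 109 for MYD88, and 0 for TLR5, TLR6 and TLR8. A match is a description of letters and says nothing about binding in these cells, which was not measured.

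LY96, the protein that holds lipopolysaccharide in the pocket of TLR4, was close to the limit of detection. It had 7, 6 and 2 counts in controls and 2, 2 and 2 with NFIC shRNA. The sums of 15 and 6 counts give a ratio of 0.405 (95% interval 0.129 to 1.10, covering counting error only). This interval holds 1, so the sums show no difference beyond counting error. An exact two-sided permutation test of the CPM gave p = 0.2, but with 3 against 3 samples it cannot fall below 0.1 at any depth. The per-sample ratio of CD14 to TLR4, computed from FPKM, was 0.814, 0.900 and 0.845 in controls and 1.82, 2.40 and 2.06 with NFIC shRNA. The ratio was thus below 1 in every control and above 1 in every NFIC shRNA sample. Where it crosses 1 is set by the gene lengths in the table, 13277 bases for TLR4, the length of all its annotated exons merged, and 1648 bases for CD14, and TLR4 had more counts than CD14 in every sample. The change of the ratio between groups does not depend on these lengths. The difference was 1.29 on the log2 scale, or 2.44-fold, more than the spread between replicates (pooled SD 0.15). The exact two-sided permutation p was 0.1 (0.167 after Benjamini-Hochberg adjustment over the 5 pairs of members compared), and 0.1 is the smallest p that 3 against 3 samples allow. Since CD14 and TLR4 were each called already, the ratio restates their change on a scale that does not depend on library size. For LY96 to TLR4 the log2 difference was -0.48 with overlapping groups (exact permutation p = 0.4, adjusted 0.5), and it ranged from -1.10 to -0.093 when single samples were left out.

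**Figure D2:**
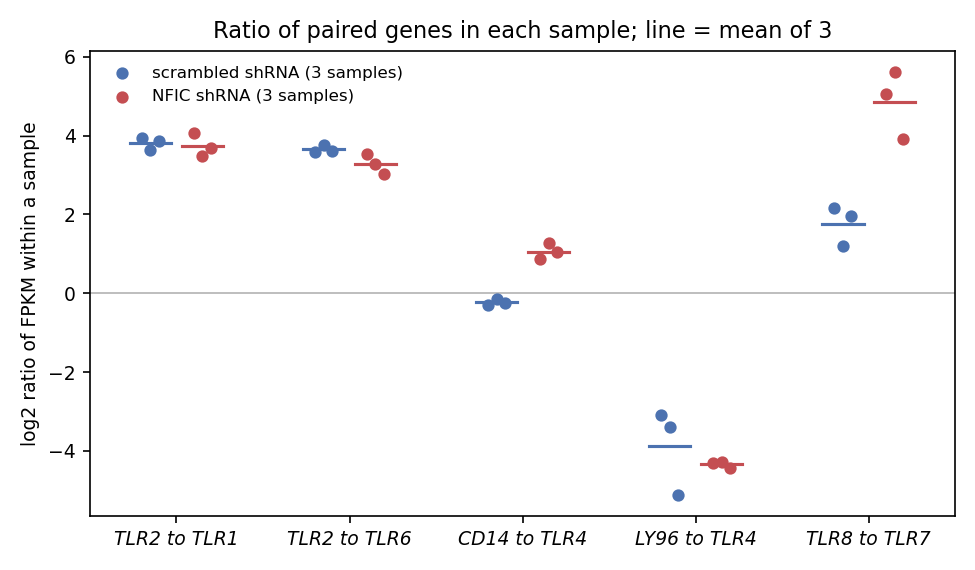
Log2 ratio of FPKM for the 5 pairs of members within each sample, with 1 point per sample and a line at each group mean, n = 3. The CD14 to TLR4 ratio is below 0 in all scrambled samples and above 0 in all NFIC shRNA samples, and the TLR2 to TLR1 and LY96 to TLR4 ratios overlap between groups.

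TLR5 is the receptor for flagellin, the protein of bacterial flagella. TLR5 (chr1:223109404-223143248, minus strand) was a rare transcript, with 18, 16 and 22 counts in controls and 27, 40 and 37 with NFIC shRNA. The groups did not overlap in CPM, although they rest on few reads. The level rose from 0.835 ± 0.188 to 1.54 ± 0.213 CPM, 185% of the control, with a log2 fold change of 0.90 (SE 0.27, 95% interval 0.32 to 1.47, edgeR adjusted p = 0.00924). Its call came closest to being lost of the 4, with an adjusted p of 0.0480 in DESeq2 and of up to 0.0453 in edgeR when 1 sample was left out.

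TLR7 and TLR8 sense single-stranded RNA in endosomes and lie next to each other on the X chromosome, TLR7 at chrX:12867072-12890361 and TLR8 at chrX:12906620-12923169, both on the plus strand. TLR7 had 7, 11 and 8 counts in controls and 1, 1 and 2 with NFIC shRNA, and the groups did not overlap. All its NFIC shRNA samples were below the 3-count limit. The sums of 26 and 4 counts give a ratio of 0.156 (95% interval 0.0395 to 0.449), and the exact two-sided permutation test gave p = 0.1. Without the low-count filter it was called lower by edgeR (adjusted p = 0.00445), as it was by DESeq2 (adjusted p = 0.0276). TLR8 did not follow its neighbor. It had 26, 21 and 26 counts and then 28, 41 and 25 counts with overlapping groups, and its levels of 1.09 ± 0.205 and 1.40 ± 0.344 CPM gave a log2 fold change of 0.37 (95% interval -0.21 to 0.96, edgeR adjusted p = 0.257). The ratio of TLR8 to TLR7 in FPKM was 4.44, 2.28 and 3.88 in controls and 33.5, 49.0 and 14.9 with NFIC shRNA, which rests on 1 or 2 TLR7 reads in each NFIC shRNA sample (exact permutation p = 0.1, adjusted 0.167). TLR9, the endosomal receptor for unmethylated CpG DNA and not one of the 10, fell from 4.17 ± 0.411 to 2.10 ± 0.386 CPM (log2 fold change -0.98, edgeR adjusted p = 1.63e-04), with 88, 94 and 99 counts against 38, 59 and 44. TLR3, which binds double-stranded RNA, had 2 counts over the scrambled and 1 over the NFIC shRNA samples, and TLR10 had 8 and 3.

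MYD88 (chr3:38138552-38143024, plus strand) is the adaptor shared by all the receptors among the 10 genes. It had 1207, 1220 and 1149 counts in controls and 1127, 1160 and 1367 with NFIC shRNA, and the groups overlapped. The level was 52.9 ± 3.16 and 54.6 ± 4.62 CPM, a log2 fold change of 0.044 (SE 0.070, edgeR adjusted p = 0.604), and the 95% interval of -0.10 to 0.19 excludes a change as large as that of TLR2. The sign of this small difference turned under upper-quartile scaling and when scrambled replicate 2 or NFIC shRNA replicate 3 was left out.

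Levels between genes were compared per length, in FPKM, which divides the normalized counts by the length of the gene. With scrambled shRNA, TLR2 was highest at 19.6 FPKM, followed by MYD88 at 13.1, and both stood apart from the rest in every sample. TLR4 at 5.04 and CD14 at 4.29 FPKM overlapped, as did TLR6 at 1.57 and TLR1 at 1.40 FPKM. LY96 at 0.389 and TLR8 at 0.247 FPKM overlapped, and TLR5 at 0.107 and TLR7 at 0.0725 FPKM closed the order, also overlapping. With NFIC shRNA the order at the top was TLR2 at 14.6 and MYD88 at 13.7 FPKM, now overlapping, then CD14 at 6.78 and TLR4 at 3.26 FPKM, which had changed places on this scale and no longer overlapped. TLR2 made up 42.8% of the summed FPKM of the 10 genes in controls and 35.1% with NFIC shRNA, and CD14 went from 9.36% to 16.3%. Within the lipopeptide pairs, the ratio of TLR2 to TLR6 was 12, 13.5 and 12.2 in controls and 11.6, 9.73 and 8.14 with NFIC shRNA, a log2 difference of -0.37 without overlap (exact permutation p = 0.1, adjusted 0.167). The ratio of TLR2 to TLR1 differed by -0.061 on the log2 scale, less than the spread between replicates (exact permutation p = 0.9).

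**Figure D3:**
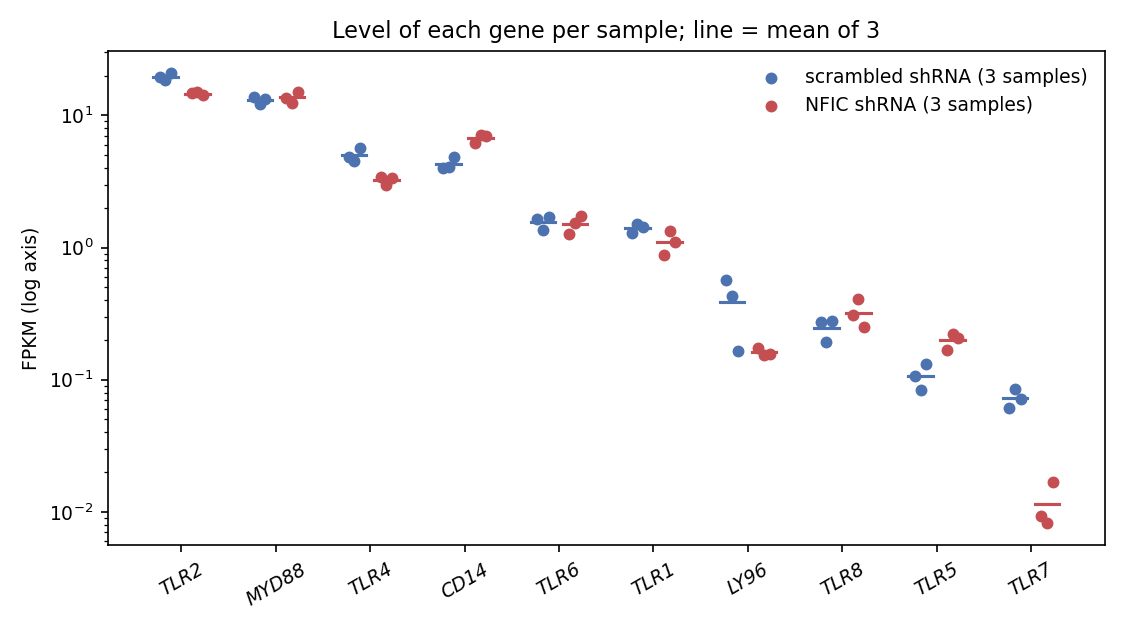
FPKM of the 10 members in each sample on a log axis, ordered by their level in controls, with 1 point per sample and a line at each group mean, n = 3. The mean levels in controls run from 19.6 FPKM for TLR2 down to 0.0725 FPKM for TLR7, and the groups separate for TLR2, TLR4, CD14, TLR5 and TLR7.

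The surrounding pathway was read from 9 lists with 89 genes, of which 86 had a single row in the count table and 74 were tested. Of these, 38 were higher (51.4%, against 29.6% of all genes tested) and 17 lower (23.0%, against 30.3%), and 19 were not called. The 38 include IL18R1 and IL18RAP, which passed the low-count filter only through the NFIC shRNA samples and so had to differ. The lists were chosen with earlier results of these data known, so the shares describe these lists only. Among the 6 adaptors beside MYD88, TICAM2, which bridges TLR4 to interferon signaling, rose from 2.73 ± 0.342 to 6.0 ± 1.86 CPM (log2 fold change 1.14, edgeR adjusted p = 1.33e-04). SARM1, a TIR-domain NAD hydrolase, fell by 0.89 on the log2 scale, and TIRAP, which brings MYD88 to TLR2 and TLR4, fell by 0.37. The remaining 3 did not pass the test. Of 14 genes for IRAK, TRAF and TAK1 signaling, 7 rose and 4 fell. IRAK1, a kinase of the complex that forms on MYD88, had 2341, 2624 and 2214 counts in controls and 1515, 1669 and 1432 with NFIC shRNA, a log2 fold change of -0.62 (SE 0.063, edgeR adjusted p = 2.19e-07). The ubiquitin ligase gene PELI3 also fell (-0.96), as did TAB1 (-0.30), whereas PELI2 (0.65), TRAF3 (0.36) and MAP3K7, which encodes the kinase TAK1 (0.32), rose.

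Among 8 genes of IKK, TBK1 and the IRF factors, 3 rose and 2 fell. Over all genes tested, 29.6% were higher and 30.3% lower. CHUK, which encodes IKKα, rose by 0.65 and TBK1 by 0.51 on the log2 scale, and IRF7 by 0.34, while IRF5 changed by -0.25 and IKBKE by -0.31. Of 13 tested genes for receptor folding, trafficking and proteolysis, 6 rose and 1 fell. UNC93B1, which carries the endosomal receptors out of the endoplasmic reticulum, rose from 70.5 ± 2.25 to 92.8 ± 5.27 CPM (log2 fold change 0.40, edgeR adjusted p = 1.37e-05), and the receptor chaperone CNPY3 by 0.26. The cathepsins, which cut endosomal receptors, split, with CTSS at 0.67 and CTSL at -0.82. Of 6 tested co-receptors and ligand carriers, 4 fell. These included CD36, a scavenger receptor that assists the TLR2 and TLR6 pair (-0.85), LY86, the LY96 relative that partners CD180 (-0.67), and RFTN1, a lipid raft protein (-0.64), while TREM1, a surface amplifier of receptor signaling (0.68), and HMGB1, a chromatin protein that TLR2 and TLR4 sense once it is released (0.35), rose.

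**Figure D4:**
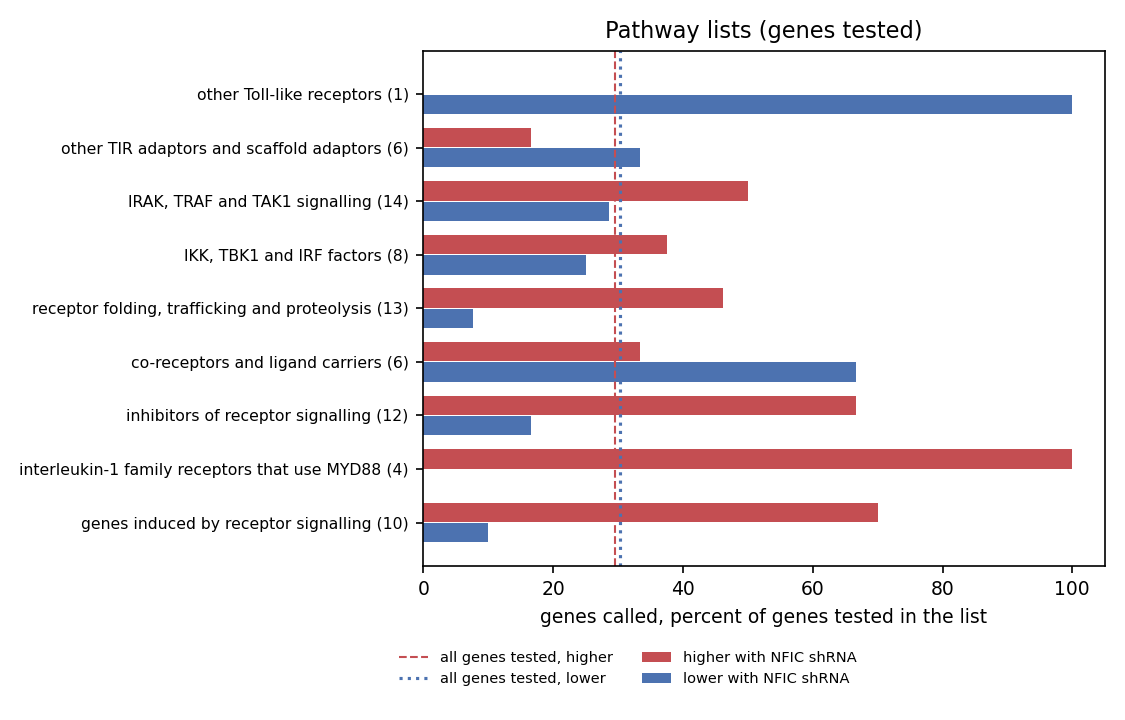
Share of tested genes in each of the 9 pathway lists called higher or lower with NFIC shRNA, in percent, with the number tested in brackets and the shares over all genes tested as lines at 29.6% and 30.3%. Every list except the other Toll-like receptors and the other adaptors lies above the line for higher genes, and those 2 lists and the co-receptors lie above the line for lower genes. The bar of the interleukin receptors includes IL18R1 and IL18RAP, which passed the low-count filter only through the NFIC shRNA samples.

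Inhibitors of receptor signaling were higher for 8 of 12 genes and lower for 2, against 29.6% higher and 30.3% lower over all genes tested. CYLD, a deubiquitinase that restrains NF-κB, had 904, 906 and 811 counts in controls and 1845, 1932 and 2195 with NFIC shRNA, a log2 fold change of 1.20 (SE 0.067, edgeR adjusted p = 1.63e-10). OTULIN, a deubiquitinase of linear chains, rose by 0.54 and IRAK3, the IRAK that blocks signaling, by 0.35. TNIP1, the partner of the deubiquitinase A20, fell by 1.03 and RNF216 by 0.43. Among 10 tested genes that receptor signaling induces, 7 rose and 1 fell. The list held 16 genes, of which 14 had a single row in the count table, and 3 of these had at most 3 counts in any sample. ICAM1, an adhesion molecule, had 332, 212 and 289 counts in controls and 776, 880 and 970 with NFIC shRNA (log2 fold change 1.66, edgeR adjusted p = 3.49e-06), IRF1 rose by 1.11 and NFKBIZ by 0.45, and NFKBIA, which encodes the NF-κB inhibitor IκBα, fell by 0.47.

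The interleukin receptors that also signal through MYD88 were higher for all 4 of the genes tested, out of 7 listed, against 29.6% over all genes tested. Of these 4, 2 had to differ, as described below. IL1R1 had 43, 56 and 47 counts in controls and 152, 147 and 176 with NFIC shRNA, a log2 fold change of 1.72 (SE 0.15, edgeR adjusted p = 4.66e-08), and IL1RAP, its co-receptor, had a log2 fold change of 0.34. IL18R1 had 8, 5 and 9 counts and then 56, 66 and 99, and IL18RAP had 0, 2 and 4 counts and then 12, 15 and 39. Both passed the low-count filter only through the NFIC shRNA samples and so had to differ, and their count is no support for the list. The 3 others, IL1RL1, IL1RL2 and the decoy receptor gene IL1R2, were too low to be tested, with at most 8 counts over a group.

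**Figure D5:**
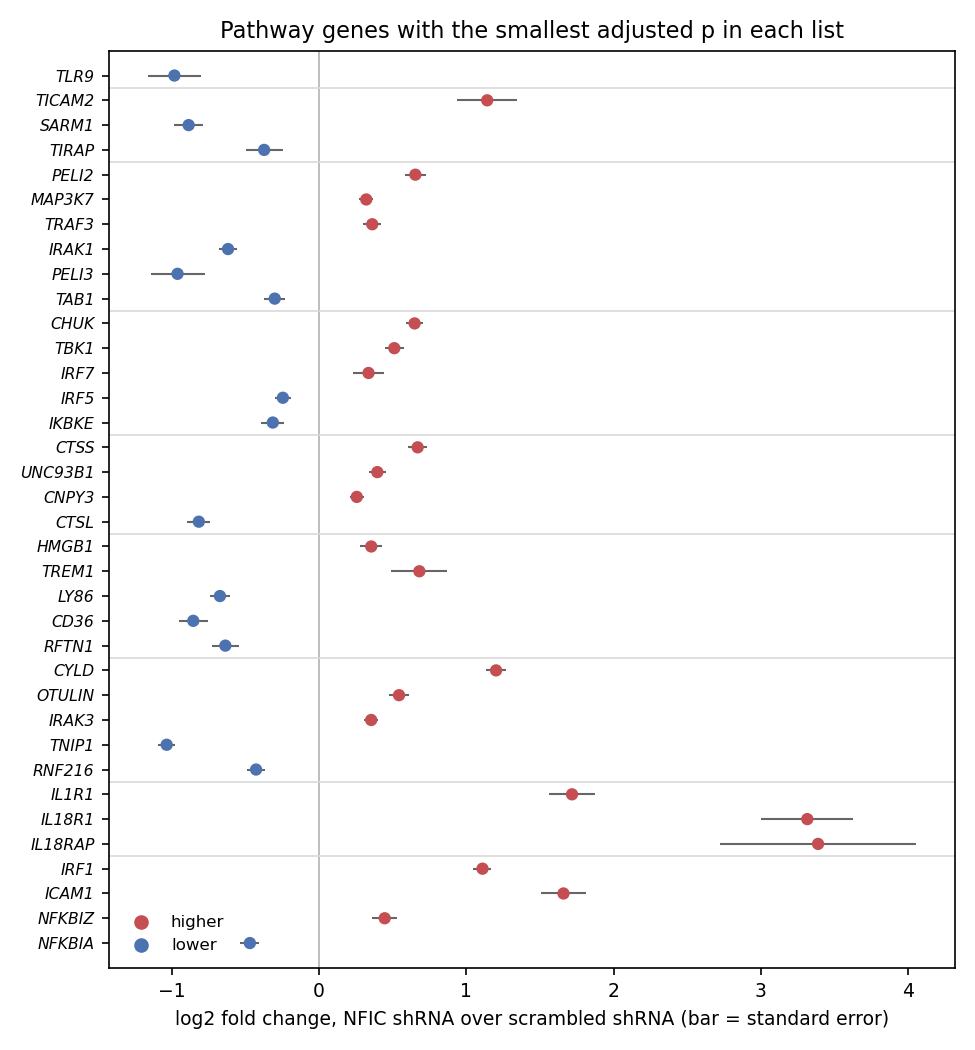
Log2 fold change, NFIC shRNA over scrambled shRNA, of the named pathway genes from edgeR, with bars of 1 standard error, grouped by list. IL18RAP and IL18R1 have the highest values and TNIP1 the lowest, and IL18RAP has the longest bar.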

How the data were processed

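RNA was sequenced from 6 sorted THP-1 samples, 3 controls (scrambled shRNA) and 3 with NFIC shRNA. Per the study's methods and the submitters' processing notes, the authors trimmed paired-end reads with Trim Galore, checked them with FastQC, mapped them to GRCh38 with STAR and counted them with featureCounts on an Ensembl annotation. The deposited counts are raw reads per gene. The use of strand and of duplicates and the tool versions are not given in the sources used here. The authors also deposited a normalized signal, in which each sample's counts are scaled by its DESeq2 size factor, and FPKM values made from that signal and the gene length. The authors' own comparison (fold changes, standard errors, test statistics and p-values) and mean were also in the table and were not used.

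Counts were fitted on the whole table with edgeR 4.0.16 (limma 3.58.1, R 4.3.3), with TMM scaling, filterByExpr and the robust quasi-likelihood test, 3 against 3 samples without a block. The adjusted p threshold was 0.05. The standard error is the size of the log2 fold change divided by the square root of F. The script was tested on simulated data. FPKM served for levels between genes and for ratios within a sample. TLR7 and LY96 were outside the filter. Intervals on sums of counts are 95% exact intervals and cover counting error only. Depth was 20369543 to 24809720 counts per sample. Positions are from the GENCODE annotation of GRCh38 and promoters from RefSeq. As alternatives, scaling by upper quartiles, by total counts or by DESeq2's size factors was tried, and DESeq2 1.42.0, no filter, at least 10 counts in every sample, blocks by replicate number, each sample left out in turn, and for ratios an added count of 1.

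The members and lists were chosen with earlier results of these data known. The genes named were the 10 members, NFIC, TLR3, TLR9, TLR10 and, from each other list, up to 3 higher and 3 lower genes with the smallest adjusted p. IL1RAP was named as the only tested gene of its list outside that rule, and IL1RL1, IL1RL2 and IL1R2 as its untested genes, after their values were seen. IRAK4 and IFNB1 are not analysed here, and SOD2, whose symbol is on 2 rows, was left out.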

Additional observations from a re-analysis of the deposited data

How the results depend on the processing

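TLR2, TLR4, CD14, TLR5 and NFIC kept their direction and their call under all 14 alternatives, and TLR8 its direction without a call. TLR1 crossed the threshold under 6 of the 14. Its log2 fold change was -0.41 with upper-quartile factors (adjusted p = 0.0290) and -0.37 with at least 10 counts in every sample (0.0465), and it ranged from -0.51 to -0.22 with single samples left out. MYD88 was at -0.013 with upper-quartile factors and ranged from -0.014 to 0.11 with single samples left out. The median log2 fold change over all genes was -0.068 with upper-quartile factors, against -0.011 with TMM scaling. TLR6 ranged from -0.16 to 0.050, and the log2 difference in the ratio of TLR2 to TLR1 from -0.22 to 0.068, being above 0 only without NFIC shRNA replicate 2. The causes were not tested. Over all alternatives 2 members were higher and 2 or 3 lower, and of the pathway genes 35 to 40 were higher and 14 to 19 lower. Of 252 list counts 11 moved by over 1.5 times, among them the interleukin receptors, with 2 in place of 4 higher at 10 counts in every sample. With 1 count added, the TLR8 to TLR7 difference was 2.38 in place of 3.09.

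The replicate numbers of the labels did not pair the samples: deviations from the group means correlated between -0.086 and 0.056 within the 3 numbered pairs, and between 0.027 and 0.145 in a pairing after the titles, in which C1 went with N1, C3 with N3 and, sharing no number, the remaining C4 with N2. Not every sample correlated best with its own number. With the replicate block, 5439 genes were higher and 5544 lower in place of 5676 and 5810, and TLR1 was called lower at -0.36 (adjusted p = 0.0439). With the block after the titles, 5981 genes were higher and 6118 lower, and TLR1 was again called at -0.36 (0.0231).

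Depth limits TLR7, LY96, TLR3 and TLR10 most, and 3 samples a group limit every exact test to p = 0.1 at best.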
